A study of Mus musculus with 4 samples.

Results

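MHC class I antigen presentation was followed through 35 genes of the mouse: class I heavy chains and their light chain, class I-like molecules, immunoproteasome subunits, peptide transport and loading factors, trimming peptidases and 2 transcriptional regulators. The genes were named for their role in the pathway and matched by symbol, and all 35 were found among the 36445 genes of the table. The cells were MC38, a mouse colon cancer line, treated for 24 h with PBS or with 5-fluorouracil (5-FU) at 1 mM, with 2 libraries of polyadenylated RNA per group. 5-FU is a pyrimidine analogue that blocks thymidylate synthase and enters RNA and DNA, and the comparison asks how the genes of this pathway differ after the drug. Values are FPKM, fragments per kilobase of transcript, scaled to the depth of the library, so levels of different genes can be set side by side.

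Nearly every nucleated cell displays peptides from its own proteins on class I molecules, which cytotoxic T cells read. Proteasomes cut the proteins, the TAP transporter moves the peptides into the endoplasmic reticulum, peptidases trim them, and a loading complex fits them onto a heavy chain paired with beta-2 microglobulin. Interferons raise many of these genes together through IRF factors and the transactivator NLRC5, while NF-kB factors bind an upstream enhancer of the heavy chain genes.

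The libraries set the precision of what follows. By the FPKM steps, PBS was sequenced to about 41.3 M and 41.6 M reads (M, mega) and 5-FU to about 20.8 M and 20.6 M. Spread was larger within PBS than within 5-FU. Over the 27 tested members the median absolute log2 difference was 0.294 within PBS and 0.089 within 5-FU, against 0.271 and 0.073 over all tested genes. The labels do not say whether replicates were separate cultures, so p-values measure only the spread between these libraries, which may be technical. All 10 colon epithelium markers were below 1 FPKM in every library. Of 5 mesenchymal markers, Vim lay between 889.7 and 1069 FPKM and Fn1 between 218.3 and 588.0 FPKM, Col3a1 and Col1a1 were lower, and Col1a2 reached at most 0.147 FPKM. Fn1 fell after 5-FU (limma adjusted p = 0.0155), and its part in the results was not tested. Of 10 leukocyte markers, 8 were below 1 FPKM everywhere and Cd3e was listed at 0. The leukocyte list summed to 7.88 and 22.5 FPKM in PBS and to 20.6 and 18.8 FPKM in 5-FU, nearly all of it Cd68 and Lyz2, and its part in the results was not tested.

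The upstream sequences of the heavy chain genes show what these genes share before any value is considered. RefSeq (GRCm38.p6) gave a promoter for 28 of the 35 members, and the 250 bases before the start site were searched on both strands. An IRF core, AANNGAAA, occurred in 16 of the 28, against 21.3% of all 32851 promoters of the same length. An NF-kB type motif, written as GGGA, any base, T, any 2 bases and CC, occurred in 8 of the 28, against 3.44% of all promoters. A longer interferon element, GAAA followed after any 2 bases by GAAA, contains the IRF core. It occurred in 4, namely B2m, H2-T22, H2-T23 and Irf2, against 2.98% of all. Most members with the IRF core are related heavy chain genes, so these counts are not of independent sequences. The matches are letters in a window and no evidence of binding.

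The stretch that holds both motifs is printed for the class I heavy chain genes because H2-K1, H2-D1, H2-Q4, H2-Q6 and H2-Q10 carry nearly the same letters at levels that differ widely. Capitals mark the NF-kB type motif on the left and the IRF core, read on the opposite strand, on the right.
H2-K1: tGGGGATTCCCCatctccacagTTTCACTT
H2-D1: tGGGGATTCCCCatctcctcagTTTCACTT
H2-Q4: tgGGGATTTCCCatctccccagTTTCACTT
H2-Q6: tGGGGATTCCCCatctccccagTTTCACTT
H2-Q7: ctGGGGATTCCCatctccccagTTTCACTT
H2-Q10: tgaggactccccatctccccagTTTCACTT
H2-T22: GGAGAGTCCCtaattggcttagTTTCACTT
H2-M3: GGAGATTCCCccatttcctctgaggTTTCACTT

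All 8 lie on chromosome 17, at chr17:34000430-34000459 (minus strand) for H2-K1, chr17:35262922-35262951 for H2-D1, chr17:35379442-35379471 for H2-Q4 and chr17:35424676-35424705 for H2-Q6. Those of H2-Q7 (chr17:35439020-35439049), H2-Q10 (chr17:35469912-35469941), H2-T22 (chr17:36042926-36042955, minus strand) and H2-M3 (chr17:37270108-37270140) follow, and strands not named are plus. Counted without gaps over 30 bases, H2-D1 and H2-Q6 each differed from H2-K1 at 1 base, H2-Q4 at 2, H2-Q10 at 3, H2-Q7 at 6 and H2-T22 at 12. The H2-D1 stretch falls inside an exon of a longer annotated H2-D1 transcript, and that of H2-Q4 inside an exon of the antisense gene Gm11131. H2-Q10 has no match to the NF-kB type motif in this window.

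The light chain gene and the regulator gene Irf2 carry the interferon type letters in another arrangement, shown here because Irf2 had the largest log2 difference of the 27 tested members. Capitals mark the longer interferon element and the NF-kB type motif in B2m (chr2:122147541-122147570, plus strand) and a pair of overlapping IRF cores in Irf2 (chr8:46739495-46739524, plus strand).
B2m: agaacatGAAACTGAAAatgGGAAAGTCCC
Irf2: tggggAAGTGAAAATGAAAttgacttttcc

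After 5-FU, 9 of the 27 members that could be tested rose and 2 fell, and 16 did not pass. The other 8 members never reached 1 FPKM in 2 libraries and were not tested. The test was limma on log2(FPKM + 1) across all genes, with a Benjamini-Hochberg adjusted p under 0.05. Of all 11644 tested genes 53.3% were called, 22.1% higher and 31.2% lower, against 33.3% and 7.41% of the tested members. The median log2 difference was 0.279 over the tested members and -0.097 over all tested genes. The genes that rose were Irf2, Tapbpl, H2-T10, Psmb10, H2-Q4, Psme2, Tapbp, Tap1 and Psmb8, and the genes that fell were Lnpep and Tap2. Of the 7 risen members with a RefSeq promoter, 2 held the IRF core, against 9 of all 21 tested members with a promoter. The NF-kB type motif occurred in 1 of those 7 and in 6 of the 21. A tie of these motifs to the rise was not tested. In bulk RNA, fewer cells that express a gene and less of its RNA per cell cannot be told apart.

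These counts changed with the setting, as did those of all genes, which were 2578 higher and 3628 lower in the main fit. They did not always move together. With quantile normalization 8 members were higher and 1 lower, against 2946 and 2825 of 11644 genes. When FPKM was rescaled without mitochondrially encoded and ribosomal protein genes, 6 members were higher and 3 lower, against 2012 and 3963 of 11459 genes. That setting, named below by the genes left out, also scaled every library to the same FPKM sum. The deposited sums were 343600 and 359170 FPKM in PBS and 389880 and 387730 FPKM in 5-FU. Leaving out the genes and equalizing the sums were not tested apart. Without PBS replicate 1, 16 and 5 members passed, against 4428 and 4345 of 10888 genes. Without PBS replicate 2, 14 and 4 members passed, against 3862 and 4624 of 10907 genes. Calls were fewer without a 5-FU library: 509 and 1332 of 11116 genes without replicate 1, and 481 and 1311 of 11117 without replicate 2. In both cases 2 members were higher and 0 lower, and these were Irf2 and Tapbpl. Both 5-FU libraries lay above both PBS libraries in 14 of the 27 members and below both in 5, against 35.9% and 45.1% of all tested genes.

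**Figure D1:**
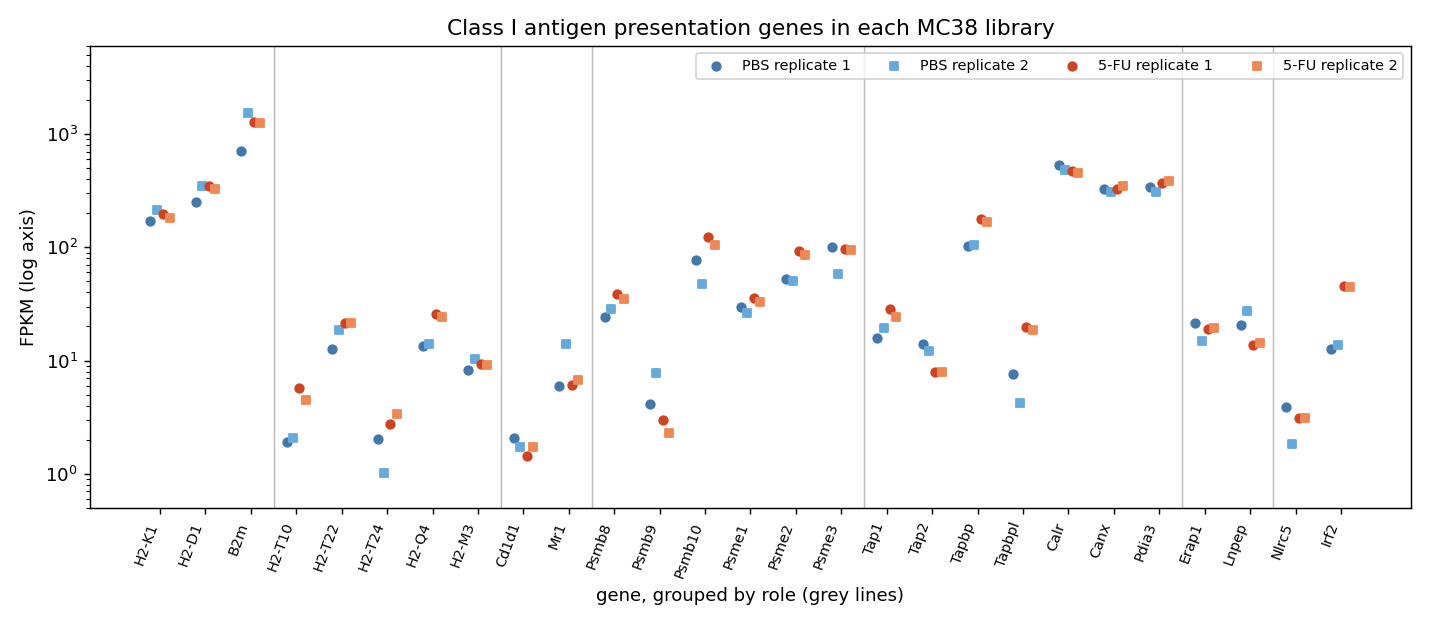
FPKM (log axis) of the 27 tested members in each library, with circles for replicate 1 and squares for replicate 2, blue for PBS and red or orange for 5-FU. B2m, Calr, Canx, Pdia3, H2-D1 and H2-K1 lie at 172.4 FPKM or more in every library, and the 2 PBS points of B2m stand apart at 707.3 and 1547 FPKM.

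The classical heavy chains and the light chain were among the most abundant members and showed no difference that passed the test. H2-K1, which encodes the classical heavy chain H-2K, measured 172.4 and 212.5 FPKM in PBS and 196.7 and 179.8 FPKM in 5-FU. Both 5-FU values lay between the PBS values. The log2 difference was -0.03, with a 95% interval from -0.41 to 0.36 (limma adjusted p = 0.897).

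H2-D1, the other classical heavy chain gene, measured 251.1 and 346.0 FPKM in PBS and 345.4 and 325.2 FPKM in 5-FU. Its 5-FU values lay within the PBS range, and the interval of the log2 difference ran from -0.30 to 0.67 (limma adjusted p = 0.435). In each library H2-D1 was higher than H2-K1, by 1.46-fold and 1.63-fold in PBS and by 1.76-fold and 1.81-fold in 5-FU.

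B2m, which encodes beta-2 microglobulin, was the most abundant member in every library, at 707.3 and 1547 FPKM in PBS and 1287 and 1252 FPKM in 5-FU. PBS replicate 2 was 2.19-fold above PBS replicate 1, and the 5-FU libraries lay between them. The interval of the log2 difference was wide, from -0.75 to 1.30 (limma adjusted p = 0.571). The direction of B2m depended on which PBS library was kept, with the spread then taken from the 5-FU pair alone: the log2 difference was -0.285 without PBS replicate 1 (adjusted p = 0.00288) and 0.843 without PBS replicate 2 (adjusted p = 2.54e-06).

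Among 12 non-classical heavy chain genes, 5 were tested, 2 rose and 3 did not pass. H2-Q4, a gene of the Qa region (chromosome 17, 35379617 to 35385290), measured 13.4 and 14.1 FPKM in PBS and 25.7 and 24.3 FPKM in 5-FU. The groups did not overlap, and the gene rose 1.82-fold (log2 difference 0.82 ± 0.11 SE, limma adjusted p = 0.00597). H2-Q4 passed and H2-K1 and H2-D1 did not; the difference between these genes was not itself tested.

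H2-T10 and H2-T22 encode closely related molecules that gamma delta T cells recognise and that are not known to present peptides. H2-T10 measured 1.93 and 2.06 FPKM in PBS and 5.68 and 4.47 FPKM in 5-FU. It rose 2.55-fold (log2 difference 1.02 ± 0.16 SE, limma adjusted p = 0.00822). H2-T22 measured 12.6 and 18.6 FPKM in PBS and 21.5 and 21.4 FPKM in 5-FU, with both 5-FU libraries above both PBS libraries, and did not pass (adjusted p = 0.116). H2-T24 measured 2.03 and 1.01 FPKM in PBS and 2.77 and 3.38 FPKM in 5-FU. The same order held there, at an adjusted p of 0.0602, and the gene passed with median-ratio scaling, quantile normalization or the replicate block. H2-M3, which presents formylated peptides, had means of 9.27 ± 1.47 and 9.24 ± 0.244 FPKM (SD, n = 2 each) in PBS and 5-FU.

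The other 7 non-classical genes were near zero in every library. H2-T23, which encodes Qa-1, ranged from 0.0118 to 0.164 FPKM, about 1.41 to 9.86 reads. H2-Q2, H2-Q6 and H2-Q7 were listed at 0 in both 5-FU libraries and held at most 3 reads in a PBS library. H2-Q1, H2-Q10 and H2-M2 held at most 7.48 reads in any library. The PBS libraries were deeper, and no difference was read from these 7 genes. H2-Q6 thus carried a stretch 1 base away from that of H2-K1 at a listed level near zero.

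Related heavy chain genes have stretches of identical sequence, which limits how far reads can be assigned to 1 of them. Over annotated transcripts, 50.4% of the 50-base windows of H2-T10 and 53.5% of those of H2-T22 occurred in another gene, about 31.7% and 31.2% in each other. The share was 36.4% for H2-Q4, with 15.3% in its antisense gene Gm11131, and 9.63% and 12.8% for H2-K1 and H2-D1. It was 35% for H2-Q6, 26.5% for H2-Q7 and 0 for B2m. H2-T10 is annotated as a polymorphic pseudogene. The handling of reads that match several genes was not described in the sources used here. The single values of H2-T10, H2-T22, H2-Q4, H2-Q6 and H2-Q7 are therefore uncertain.

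**Figure D2:**
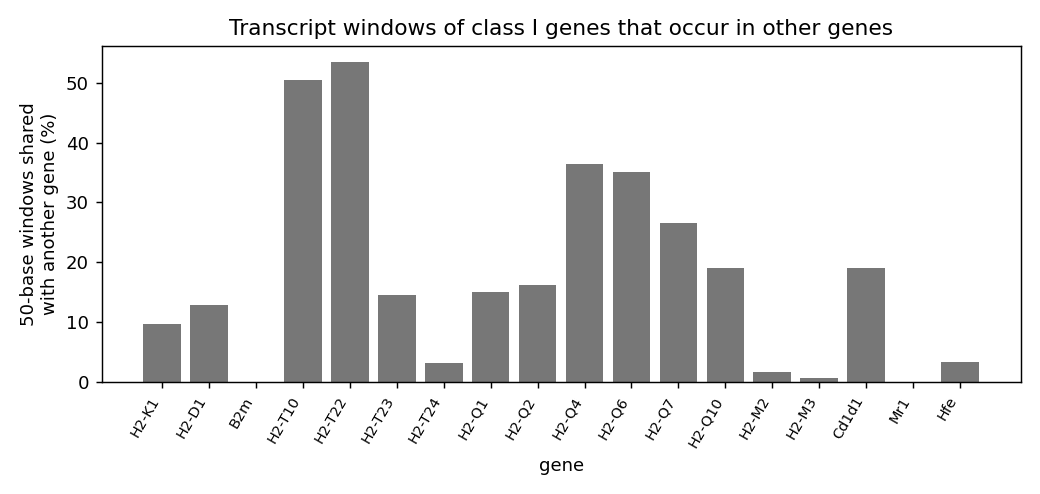
Percent of distinct 50-base transcript windows of each class I heavy chain, light chain and class I-like gene that also occur in a transcript of another gene, on either strand. H2-T22 (53.5%) and H2-T10 (50.4%) have the tallest bars, and B2m and Mr1 stand at 0.

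The class I-like genes were low or variable. Mr1, which presents vitamin B metabolites to mucosal T cells, measured 6.02 and 14.1 FPKM in PBS and 6.03 and 6.69 FPKM in 5-FU. The 5-FU values sat at the level of PBS replicate 1, and the adjusted limma p was 0.332. Cd1d1, which presents lipids to natural killer T cells, lay between 1.44 and 2.09 FPKM (adjusted p = 0.364). Hfe, whose product regulates iron uptake, measured 0.562 and 0.760 FPKM in PBS and 0.134 and 0.204 FPKM in 5-FU, about 83 and 113 reads against 10 and 15. It lay under the level needed for the test, and passed as lower when that filter was dropped (limma adjusted p = 0.0413).

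The immunoproteasome is a form of the proteasome in which 3 catalytic subunits are exchanged for interferon-inducible ones, encoded by Psmb8, Psmb9 and Psmb10. After 5-FU, Psmb8 and Psmb10 rose and Psmb9 did not pass. Psmb10 (chromosome 8, 105935735 to 105938444) measured 77.5 and 47.2 FPKM in PBS and 123.5 and 105.2 FPKM in 5-FU, and rose 1.83-fold (log2 difference 0.90 ± 0.26 SE, limma adjusted p = 0.0414). Psmb8 measured 24.3 and 28.6 FPKM in PBS and 38.4 and 35.1 FPKM in 5-FU, and rose 1.39-fold (adjusted p = 0.0409). In both genes the 5-FU libraries were above the PBS libraries.

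Psmb9 was the least abundant of the 3 and had the opposite order, with 4.12 and 7.69 FPKM in PBS and 3.0003 and 2.28 FPKM in 5-FU. Both 5-FU libraries lay below both PBS libraries. The log2 difference was -0.88 ± 0.30 SE at a limma adjusted p of 0.0607, so it did not pass. It passed as lower with the replicate block (adjusted p = 0.0358) and when FPKM was rescaled without mitochondrially encoded and ribosomal protein genes (0.0416). The calls of Psmb8 and Psmb10 were lost with that rescaling (adjusted p = 0.0709 and 0.0637) and with quantile normalization (0.0828 and 0.0819). They were also lost when low genes were kept (0.0802 and 0.124). That of Psmb8 was also lost with the replicate block (0.0609).

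The constitutive counterparts, Psmb5, Psmb6 and Psmb7, give the other side of the exchange. Psmb6 rose from 69.4 and 69.1 FPKM to 111.0 and 102.4 FPKM (limma adjusted p = 0.00999), and Psmb7 from 162.6 and 178.2 FPKM to 245.2 and 251.2 FPKM (adjusted p = 0.0156). Psmb5 measured 140.2 and 144.0 FPKM in PBS and 175.8 and 161.5 FPKM in 5-FU (adjusted p = 0.116). The immunoproteasome genes thus stayed below their counterparts in all 4 libraries.

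As FPKM ratios within a library, Psmb8 stood at 0.173 and 0.199 of Psmb5 in PBS and at 0.218 and 0.217 in 5-FU. Psmb9 stood at 0.0593 and 0.111 of Psmb6 in PBS and at 0.0270 and 0.0222 in 5-FU, and these groups did not overlap. Psmb10 stood at 0.476 and 0.265 of Psmb7 in PBS and at 0.504 and 0.419 in 5-FU, with overlapping groups. Psmb8, Psmb9 and Psmb10 together made up 22.1% and 17.6% of the FPKM of the 6 catalytic genes in PBS and 23.7% and 21.7% in 5-FU. Here too the groups overlapped. The ratios were not tested.

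**Figure D3:**
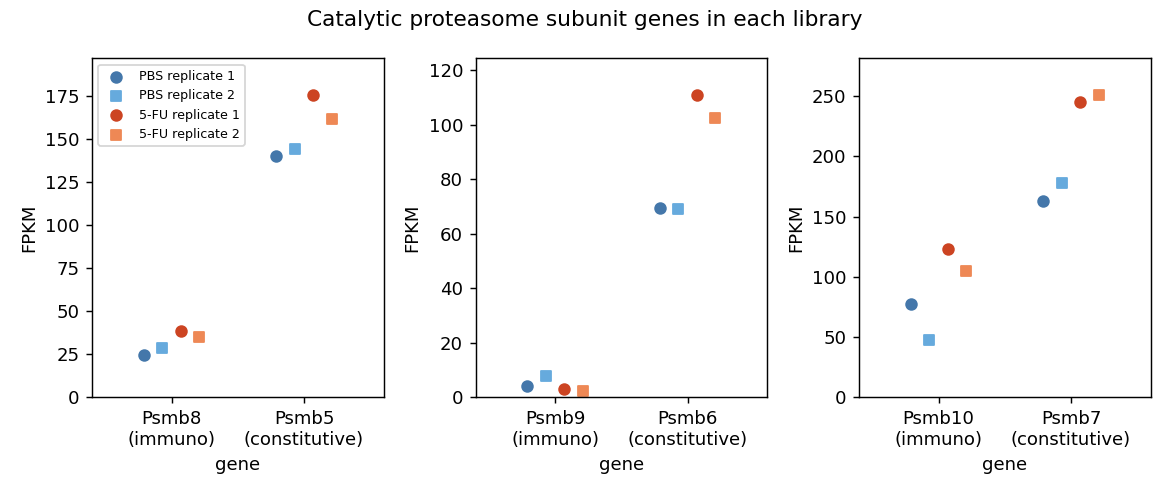
FPKM of each immunoproteasome catalytic subunit gene beside the constitutive subunit it replaces, in each library (circles replicate 1, squares replicate 2, blue PBS, red or orange 5-FU, axes from 0). The 5-FU points lie above the PBS points for Psmb8, Psmb10 and all 3 constitutive genes, and below them for Psmb9.

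The activator caps of the proteasome open its channel. Psme2, which encodes PA28 beta, measured 52.5 and 50.03 FPKM in PBS and 93.3 and 86.0 FPKM in 5-FU, and rose 1.75-fold (log2 difference 0.79 ± 0.11 SE, limma adjusted p = 0.00592). Its partner Psme1, which encodes PA28 alpha, measured 29.9 and 26.2 FPKM in PBS and 35.6 and 33.1 FPKM in 5-FU and did not pass (adjusted p = 0.113). The Psme2 to Psme1 ratio was 1.76 and 1.91 in PBS and 2.62 and 2.60 in 5-FU. Of the 50-base windows of Psme2, 28.3% occurred in the related gene Psme2b, so part of its reads may be shared. Psme3, which encodes the nuclear activator PA28 gamma, measured 99.95 and 57.7 FPKM in PBS and 95.8 and 94.1 FPKM in 5-FU. The PBS libraries enclosed the 5-FU libraries (adjusted p = 0.37).

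The TAP transporter is a dimer of TAP1 and TAP2, and its 2 genes went in opposite directions. Tap1 measured 16.0 and 19.2 FPKM in PBS and 28.3 and 24.1 FPKM in 5-FU, and rose 1.49-fold (log2 difference 0.55 ± 0.15 SE, limma adjusted p = 0.0363). Tap2 measured 14.0 and 12.2 FPKM in PBS and 7.92 and 8.01 FPKM in 5-FU, and fell 1.65-fold (log2 difference -0.65 ± 0.13 SE, adjusted p = 0.0151). Neither pair of groups overlapped. The Tap1 to Tap2 ratio was 1.14 and 1.57 in PBS and 3.57 and 3.02 in 5-FU. The Tap1 call was lost when low genes were kept (adjusted p = 0.0835) and when FPKM was rescaled without mitochondrially encoded and ribosomal protein genes (0.0558).

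These genes are neighbours on chromosome 17, where Psmb9 (34181987 to 34187764, minus strand) and Tap1 (34187553 to 34197225, plus strand) diverge from 1 region and Psmb8 (34197721 to 34201454) and Tap2 (34203527 to 34216321) follow Tap1 on the plus strand. RefSeq places the start sites of Psmb9 and Tap1 225 bases apart. The Tap1 to Psmb9 FPKM ratio was 3.88 and 2.50 in PBS and 9.43 and 10.61 in 5-FU. The interval held no IRF core and no NF-kB type motif, and did hold the GC box GGGCGG, which 32.7% of all promoters contain. It is printed on the Psmb9 strand (chr17:34187368-34187397) with the GC box in capitals, since it lies between the start sites of both genes.
Psmb9 and Tap1: tgcgcgatgatgGGGCGGggcctcagtctg

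Exons of Psmb9 and Tap1 overlap by 212 bases on opposite strands in the annotation. Whether the authors' counting used strand was not described in the sources used here, so reads there cannot be told apart. The shared part was 5.79% of the exonic length of Psmb9 and 3.87% of that of Tap1. Psmb8 and Tap2 overlap the antisense gene Gm20496, whose level was at most 1.74 FPKM, and Tap2 also overlaps Gm15821, at most 0.380 FPKM.

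Both peptide editors rose. Tapbpl, which encodes TAPBPR, an editor that acts outside the loading complex, measured 7.61 and 4.22 FPKM in PBS and 19.9 and 18.6 FPKM in 5-FU. It rose 3.25-fold (log2 difference 1.59 ± 0.27 SE, limma adjusted p = 0.00949) and passed in all 13 alternative settings. Tapbp, which encodes tapasin, the bridge between TAP and the heavy chain, rose 1.65-fold, from 103.3 and 105.9 FPKM to 178.4 and 166.0 FPKM (adjusted p = 0.00699). Tapasin transcripts were the more abundant of the 2 in every library. Tapbp shares 24.9% of its exonic bases with the antisense gene Gm19412.

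The general chaperones of the complex did not pass the test. Calr, which encodes calreticulin, measured 536.1 and 484.4 FPKM in PBS and 471.6 and 453.5 FPKM in 5-FU, with a log2 interval from -0.45 to 0.17. For the calnexin gene Canx the interval ran from -0.19 to 0.39 and for the disulfide isomerase gene Pdia3 from -0.08 to 0.52. None of the 3 passed, at limma adjusted p of 0.361, 0.471 and 0.163.

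Of the trimming peptidases, Lnpep fell and Erap1 did not pass. Lnpep, which encodes IRAP, a peptidase of endosomes used in cross-presentation, went from 20.5 and 27.4 FPKM to 13.7 and 14.4 FPKM (log2 difference -0.72 ± 0.17 SE, limma adjusted p = 0.0244). The call was lost when low genes were kept (adjusted p = 0.0694) and with quantile normalization (0.0519). Erap1, the main peptidase of the endoplasmic reticulum, measured 21.5 and 14.9 FPKM in PBS and 19.0 and 19.2 FPKM in 5-FU (adjusted p = 0.719). The PBS libraries enclosed the 5-FU libraries. Exons of Erap1 overlap those of Cast on the opposite strand over 834 bases, 11.5% of its exonic length, and Cast measured 60.9 and 89.9 FPKM in PBS and 43.0 and 40.7 FPKM in 5-FU.

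Irf2 had the largest log2 difference of the 27 tested members. It encodes an IRF family factor that binds interferon elements, known both to restrain interferon responses and to maintain basal class I pathway expression. Irf2 (chromosome 8, 46739732 to 46847458) measured 12.7 and 13.6 FPKM in PBS and 45.8 and 45.1 FPKM in 5-FU. Replicates agreed closely and the groups were far apart. It rose 3.46-fold (log2 difference 1.71 ± 0.11 SE, limma adjusted p = 0.0027), and its log2 difference stayed between 1.66 and 1.83 over the 13 alternative settings. Irf2 spans 107.7 kb, and a relation of gene length to the differences was not tested.

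Nlrc5, which encodes the class I transactivator, measured 3.90 and 1.82 FPKM in PBS and 3.11 and 3.14 FPKM in 5-FU. PBS replicate 1 was 2.14-fold above PBS replicate 2 and the 5-FU libraries lay between them (limma adjusted p = 0.682). The interval of the log2 difference ran from -0.61 to 0.92.

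**Figure D4:**
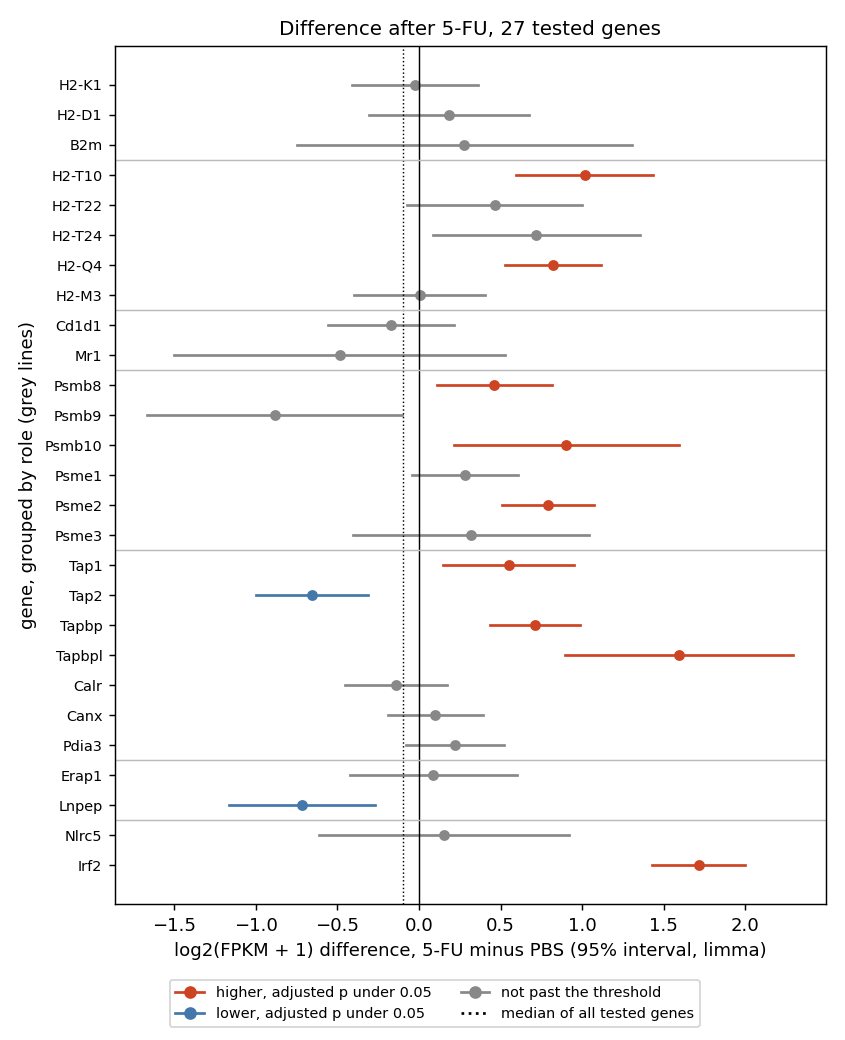
Log2(FPKM + 1) difference, 5-FU minus PBS, of the 27 tested members with 95% limma intervals, red for higher, blue for lower and grey for not past the threshold, beside the median of all tested genes (dotted, -0.097). Irf2 (1.71) and Tapbpl (1.59) lie farthest to the right and Psmb9 (-0.88) farthest to the left, the latter in grey.

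A second list held 35 further genes of the pathway, from interferon signalling to the translocon and cytosolic peptidases. All 35 were tested, 14 rose, 8 fell and 13 did not pass, with a median log2 difference of 0.198. The shares called higher and lower were 40% and 22.9%, against 22.1% and 31.2% of all tested genes. The 8 falls and the 22.9% include Rfx5, which entered the test only through PBS, where it was higher. With a mean of at least 5 FPKM required, which leaves Rfx5 out, 14 of 33 genes rose and 7 fell. All genes then gave 1777 and 2158 of 7651. The balance was 9 and 8 without mitochondrially encoded and ribosomal protein genes, and 8 and 5 when low genes were kept, where all genes gave 2368 and 2836 of 23640. Without 5-FU replicate 1 it was 1 and 2, and without 5-FU replicate 2 it was 0 and 2. Without PBS replicate 2 it was 18 and 13. The counts over all genes in the other settings are those given for the members.

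Of the interferon signalling genes named here, Irf1, Irf9, Ifngr1 and Ifngr2 rose, Jak1 fell, and Stat2 and Jak2 did not pass. The limma adjusted p was 0.036 for Irf9, 0.0389 for Ifngr2, 0.0872 for Stat2 and 0.886 for Jak2. Irf1, the activator that shares its binding element with IRF2, went from 29.0 and 33.7 FPKM to 47.9 and 47.1 FPKM (limma adjusted p = 0.0166). Ifngr1, which encodes the ligand-binding chain of the interferon gamma receptor, went from 11.5 and 10.97 FPKM to 22.2 and 19.9 FPKM (adjusted p = 0.00675). Jak1, which encodes a kinase bound to interferon receptors and is named here after its values were seen, fell from 45.1 and 62.5 FPKM to 32.5 and 33.1 FPKM (adjusted p = 0.0333). Irf1 rose 1.51-fold and Irf2 3.46-fold, and the difference between them was not tested.

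The RFX complex anchors NLRC5 at class I promoters. Rfxap went from 11.3 and 11.8 FPKM to 23.6 and 25.3 FPKM and rose 2.12-fold (limma adjusted p = 0.00435). Rfx5 went from 2.38 and 2.33 FPKM to 0.523 and 0.509 FPKM and was 4.56-fold lower (adjusted p = 0.00396). It reached 1 FPKM only in the PBS libraries, so it entered the test only through the group where it was higher. No support is drawn from its call. Rfxank, the third subunit, had an adjusted p of 0.338.

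Cytosolic and secretory genes that act before loading also diverged. Blmh, a cytosolic peptidase gene, rose 2.00-fold (limma adjusted p = 0.00497), and Sec61a1, which encodes the channel of the translocon, rose 1.98-fold, from 59.3 and 41.4 FPKM to 100.3 and 99.5 FPKM (adjusted p = 0.0142). Npepps, which encodes puromycin-sensitive aminopeptidase, fell from 38.1 and 37.3 FPKM to 13.1 and 14.0 FPKM (adjusted p = 0.00278). Ide, which encodes insulin-degrading enzyme, fell from 32.7 and 29.5 FPKM to 7.67 and 8.04 FPKM (adjusted p = 0.0027). The largest falls of this list by log2 difference were thus in Ide and Npepps, and in Rfx5 with the limit given above. Other peptidase genes of the list did not share one direction: Blmh rose and Nrdc fell (limma adjusted p = 0.00747). Thop1 and Tpp2 did not pass (limma adjusted p = 0.503 and 0.33).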

How the data were processed

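The authors deposited 1 table of FPKM values for 36445 genes in 4 libraries, 2 with PBS and 2 with 5-FU. Per the submitters' processing notes, GRCm38, Picard 2.9.0 and STAR 2.4.1a were used, with roles unstated. Nothing in the sources used here gives the counting program, annotation release or strand. Coordinates and lengths come from GENCODE M21 (GRCm38), which held 36379 of the gene IDs.

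Genes reaching 1 FPKM in 2 or more libraries were fitted with limma 3.58.1 (eBayes with trend) in R 4.3.3 on log2(FPKM + 1), which understates changes of low genes. Two-sided p-values were adjusted over all 11644 genes, and every adjusted p is from limma. The code was tested on simulated data. Folds are ratios of mean FPKM. Reads were estimated as FPKM times length times depth, where depth came from the commonest smallest step, and 63.1% to 65.1% of values below 100 reads then lay within 0.02 of a whole read. Floors cover counting error only.

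The members and lists were chosen with earlier results of these data known. Every member is named. Of the second list, up to 3 genes per direction with the largest differences are named, with Psmb5, Psmb6, Psmb7, Irf1 and Ifngr1. Further genes of that list were named after their values were seen. The values of 1 further gene of that list are not reported here. Hm13 and Nrdc were matched to the table's H13 and Nrd1 through RefSeq synonyms.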

Additional observations from a re-analysis of the deposited data

How the results depend on the processing

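The 27 tested members and 12 genes of the second list were refitted under up to 13 alternatives (pseudocounts 0.1 and 0.5, 2 other filters, 3 other scalings, eBayes without trend, a replicate block and leaving out each library). Of 499 refitted single gene values, 406 kept direction and side of the threshold, 48 lost the call, 25 gained one and 20 changed sign, all of the latter in genes that had not passed. The causes were not tested. With quantile normalization 8 members were higher and 1 lower, against 2946 and 2825 of 11644 genes. In that setting H2-D1, B2m, Cd1d1, Canx, Pdia3 and Psmb5 measured -0.111, -0.062, 0.037, -0.189, -0.053 and -0.111 log2. The Psmb8 to Psmb5 and Psmb9 to Psmb6 ratios of 5-FU over PBS were 1.44 and 0.453 in place of 1.17 and 0.289. These ratios were recomputed after seeing the data. H2-K1 measured 0.1 with median-ratio scaling. H2-M3, Canx and Erap1 measured -0.096, -0.003 and -0.009 without mitochondrially encoded and ribosomal protein genes, where the second list held 9 genes higher; with no filter it held 8 higher and 5 lower. Scalings moved the median of all genes by 0.11 (median-ratio), 0.118 (quantile) and -0.124 (without those genes), and no member past the threshold changed direction.

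With each library left out in turn, members higher ranged from 2 to 16 and lower from 0 to 5, and second list genes from 0 to 19 and from 2 to 13. The spread of a group left with 1 library was taken from the other group. The log2 difference then ranged from -0.175 to 0.125 for H2-K1, -0.046 to 0.415 for H2-D1, -0.285 to 0.843 for B2m, -0.143 to 0.151 for H2-M3, -1.04 to 0.067 for Mr1, -0.073 to 0.708 for Psme3, -0.158 to 0.336 for Erap1 and -0.247 to 0.549 for Nlrc5. The ratios of 5-FU over PBS ranged from 1.09 to 1.26 (Psmb8 to Psmb5), 0.221 to 0.415 (Psmb9 to Psmb6) and 0.968 to 1.74 (Psmb10 to Psmb7).

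Replicate numbers are shared by the groups but pair nothing in the labels, and the replicate 1 minus replicate 2 differences of PBS and 5-FU correlated at -0.01 across 11644 genes. With the replicate block 9 members were higher and 3 lower, and 14 and 7 genes of the second list. Over all 11644 tested genes that setting gave 2484 higher and 3553 lower. A floor of 3 reads on 2 kb of transcript was 0.036 FPKM in PBS replicate 2 and 0.0727 FPKM in 5-FU replicate 2, and 7 of the 8 members that were not tested reached at most 0.164 FPKM.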

Other observations

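Class II presentation, which is normally confined to professional antigen-presenting cells, gave partial values in these cells. The class II transactivator gene Ciita was at most 0.0322 FPKM in every library, and the classical class II genes H2-Aa and H2-Ab1 reached at most 0.362 FPKM. H2-Eb1 measured 2.46 and 2.28 FPKM in PBS and 4.65 and 4.40 FPKM in 5-FU, with no overlap, and rose 1.91-fold (limma adjusted p = 0.0122). It was the only 1 of 4 tested class II genes called, where 22.1% of all tested genes were called higher. H2-DMa and Cd74 did not pass (limma adjusted p = 0.0834 and 0.52). H2-DMb1, a chain of the class II peptide editor, measured 10.098 and 21.2 FPKM in PBS and 16.3 and 14.8 FPKM in 5-FU (adjusted p = 0.871). The 7 class II genes together summed to 17.1 and 30.9 FPKM in PBS and to 30.6 and 27.4 FPKM in 5-FU.

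Of 20 further class I family genes, H2-K2, Fcgrt and Procr exceeded 1 FPKM. Fcgrt, which encodes the neonatal Fc receptor heavy chain and pairs with beta-2 microglobulin, measured 2.42 and 6.90 FPKM in PBS and 2.76 and 3.10 FPKM in 5-FU. PBS replicate 2 was its higher PBS library, as in 14 of the 27 tested members and in 4941 of all 11644 tested genes. B2m and Mr1 had this order, and Psmb10 and Tapbpl had the reverse. H2-M1 stayed below 1 FPKM in every library and was not tested. Its FPKM by replicate was 0.0687 and 0 with PBS, then 0.409 and 0.642 with 5-FU. These values rest on few reads: 3 and 0 for the PBS libraries, 9 and 14 for the 5-FU libraries. Among the other untested genes of this list, H2-Bl, H2-M5 and H2-M10.1 had the opposite order, also on few reads. No difference was read from H2-M1.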
